A study of Oncorhynchus mykiss with 2 samples.

Results

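Among rainbow trout transcripts measured in germ cells and in somatic cells of the testis, 24 pairs of contigs were split: the contigs of a pair carry the same number in their names, and 1 of them was at least 2-fold higher in spermatogonia and the other at least 2-fold higher in the somatic cells. The array names these sequences YGL02, a number, and a suffix (C1, C2 and so on), and they are read here as contigs from the form of the name. Pairs were taken as numbers with exactly 2 probes on the array, with each probe well above background on more than 50% of its spots on both arrays. Of 2387 numbers with exactly 2 probes, 1775 met this condition, and 24 of these were split. They hold 48 of the 28578 contigs, with 1 probe each, among 55916 sequences on the array. A further 6 of the 2387 numbers (0.251%), not counted here, had their contigs detected in opposite populations. The members were chosen by the difference between the 2 arrays, so their differences are given as a description and no test was run on them.

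Type A spermatogonia are early male germ cells that renew themselves and feed sperm production, and testicular somatic cells are the supporting and hormone-producing cells around them. Vasa, whose promoter drove green fluorescent protein in the fish used here, is an RNA helicase known for its activity in germ cells. In an assembly of transcript reads, a contig is a stretch of sequence built from overlapping reads, and several contigs can come from 1 gene, as separate parts, splice forms or alleles. They can also come from duplicated genes, which are common in trout because the salmonid ancestor doubled its genome. The sources used here do not say what the shared number of a pair means, and they hold no probe sequences, so it is not known whether the probes of a pair detect the same transcript, related transcripts or unrelated ones.

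The study compared type A spermatogonia with testicular somatic cells, both isolated by fluorescence-activated cell sorting from male fish carrying the transgene pvasa-GFP, which all samples share. From each population, 25 ng of RNA was labelled with Cy3, a fluorescent dye, and applied to 1 array of a custom design, so each group has 1 sample and no replicate. The labels give neither the age of the fish, nor how many fish were pooled, nor the gate used for the somatic cells. The cell types could not be checked against marker genes such as vasa, because 0 probe or contig names matched the gene table used here.

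A level is the log2 processed spot signal minus the log2 of the 75th percentile of the non-control spots of the array (a signal of 769 in spermatogonia and 497 in somatic cells), averaged over the spots of a probe. A level of 0 therefore equals that percentile, and the lowest detected levels were -5.29 in spermatogonia and -5.17 in somatic cells. Differences are spermatogonia minus somatic cells in log2, positive where spermatogonia were higher. Levels of different probes depend on the probes and are not compared. The SD given with a difference is over repeat spots of 1 array position each and leaves out the spread between fish, sorts and labelling reactions. A lower level in bulk RNA can reflect fewer cells that carry a transcript or less of it per cell, and these cannot be told apart here.

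Opposite differences of 2-fold or more each way were rare within a pair, and differences of that size in the same direction were more common. Split pairs made up 1.35% of the 1775 pairs, while both contigs favoured spermatogonia by 2-fold or more in 440 (24.8%) and somatic cells in 329 (18.5%). In another 243 pairs (13.7%) 1 contig was at least 2-fold higher in spermatogonia with the other under 2-fold, and in 151 (8.51%) the same held towards somatic cells. The remaining 588 (33.1%) had both contigs under 2-fold. The balance of the directions depended on the scaling. Without scaling of the arrays, both contigs favoured spermatogonia by 2-fold or more in 708 pairs and somatic cells in 206. As background, 31% of the 20987 contigs detected on both arrays favoured spermatogonia by 2-fold or more and 24.7% favoured somatic cells. Among the 3550 contigs of the 1775 pairs these shares were 32.3% and 23.5%. Where 1 contig of a pair favoured spermatogonia by 2-fold or more (707 pairs), the other favoured somatic cells by as much in 3.39%; starting from a contig that favoured somatic cells (504 pairs), the share was 4.76%. Opposite signs of any size were found in 260 pairs (14.6%).

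Across the 1775 pairs the differences of the contigs with the lower and the higher suffix were correlated, with Pearson's r at 0.857 and Spearman's rho at 0.828. These pairs come from the same arrays and are not independent replicates. The gap, which is the higher difference of a pair minus the lower, had a median of 0.37 in log2 (1.29-fold) over all pairs, and it was under 1 in 1417 pairs (79.8%). By their selection all 24 split pairs had gaps of at least 2, and these ran from 2.14 to 5.78 with a median of 3.20 (9.21-fold). Scaling an array as a whole leaves a gap as it is, whereas it moves both differences of a pair together.

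**Figure D1:**
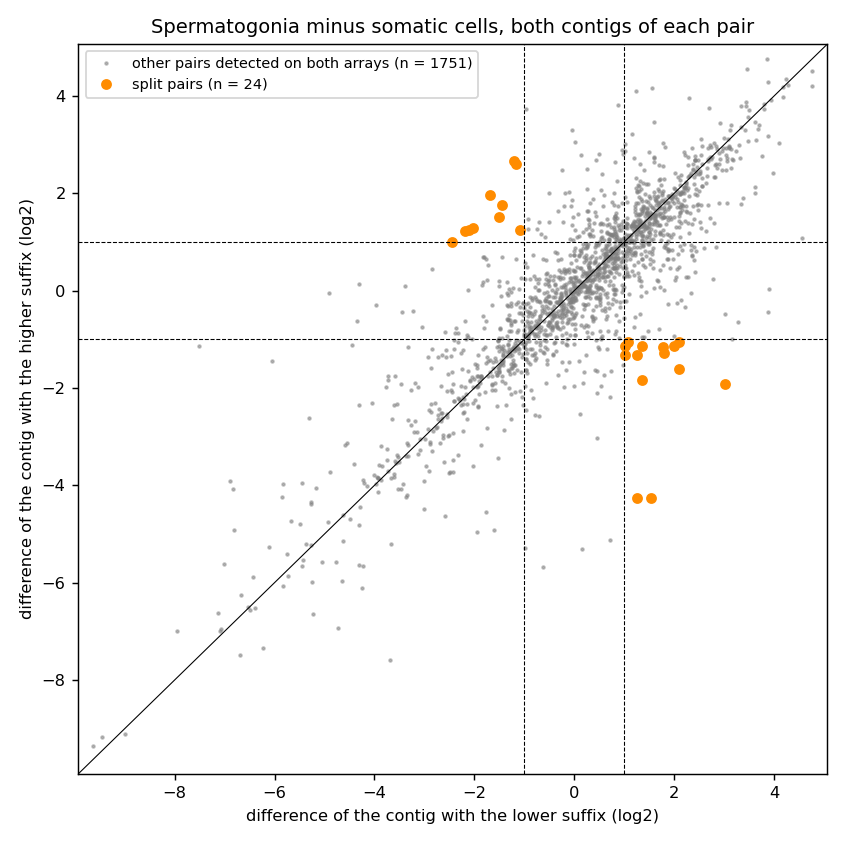
Each point is 1 of the 1775 pairs, with the difference between spermatogonia and somatic cells (log2) of the contig with the lower suffix on the horizontal axis and that of the contig with the higher suffix on the vertical axis; dashed lines mark 2-fold and the solid line marks equal differences. Most pairs lie along the line of equal differences (Pearson r 0.857), and the 24 split pairs, in orange, lie by selection in the upper left and lower right corners.

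A gap of at least 2 was found in 106 pairs (5.97%), of which 24 (22.6%) were split. Of the other 82, 34 had 1 contig at least 2-fold higher in spermatogonia and the other under 2-fold, and 31 had 1 contig at least 2-fold higher in somatic cells and the other under 2-fold. Both contigs favoured spermatogonia by 2-fold or more in 4 of them and somatic cells in 13. By the size of the gap the split pairs ranked between 3 and 95 of 1775, and 3 of them were among the 10 largest. Large gaps were thus also found between contigs that were both higher in the same population.

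Within the 24 pairs, the contig higher in spermatogonia had differences from 1.01 to 3.02, with a median of 1.44 (2.71-fold). The contig higher in somatic cells had differences from -4.27 to -1.06, with a median of -1.39 (2.62-fold). With the scaling used here, the difference towards spermatogonia was the larger in size in 14 pairs, and the difference towards somatic cells in 10. A difference of at least 4-fold was reached on the spermatogonial side in 6 pairs and on the somatic side in 6 others, and in 0 pairs on both sides. The other 12 pairs stayed under 4-fold each way. These counts depend on the scaling, which moves both differences of a pair together. Scaling to spike-in transcripts moved every difference up by 0.79. The somatic side then stayed the larger only in YGL02.4686 (2.03 and -3.48) and YGL02.7927 (2.32 and -3.47). Both of these pairs were then at least 4-fold apart each way, and without scaling YGL02.7927 was.

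**Figure D2:**
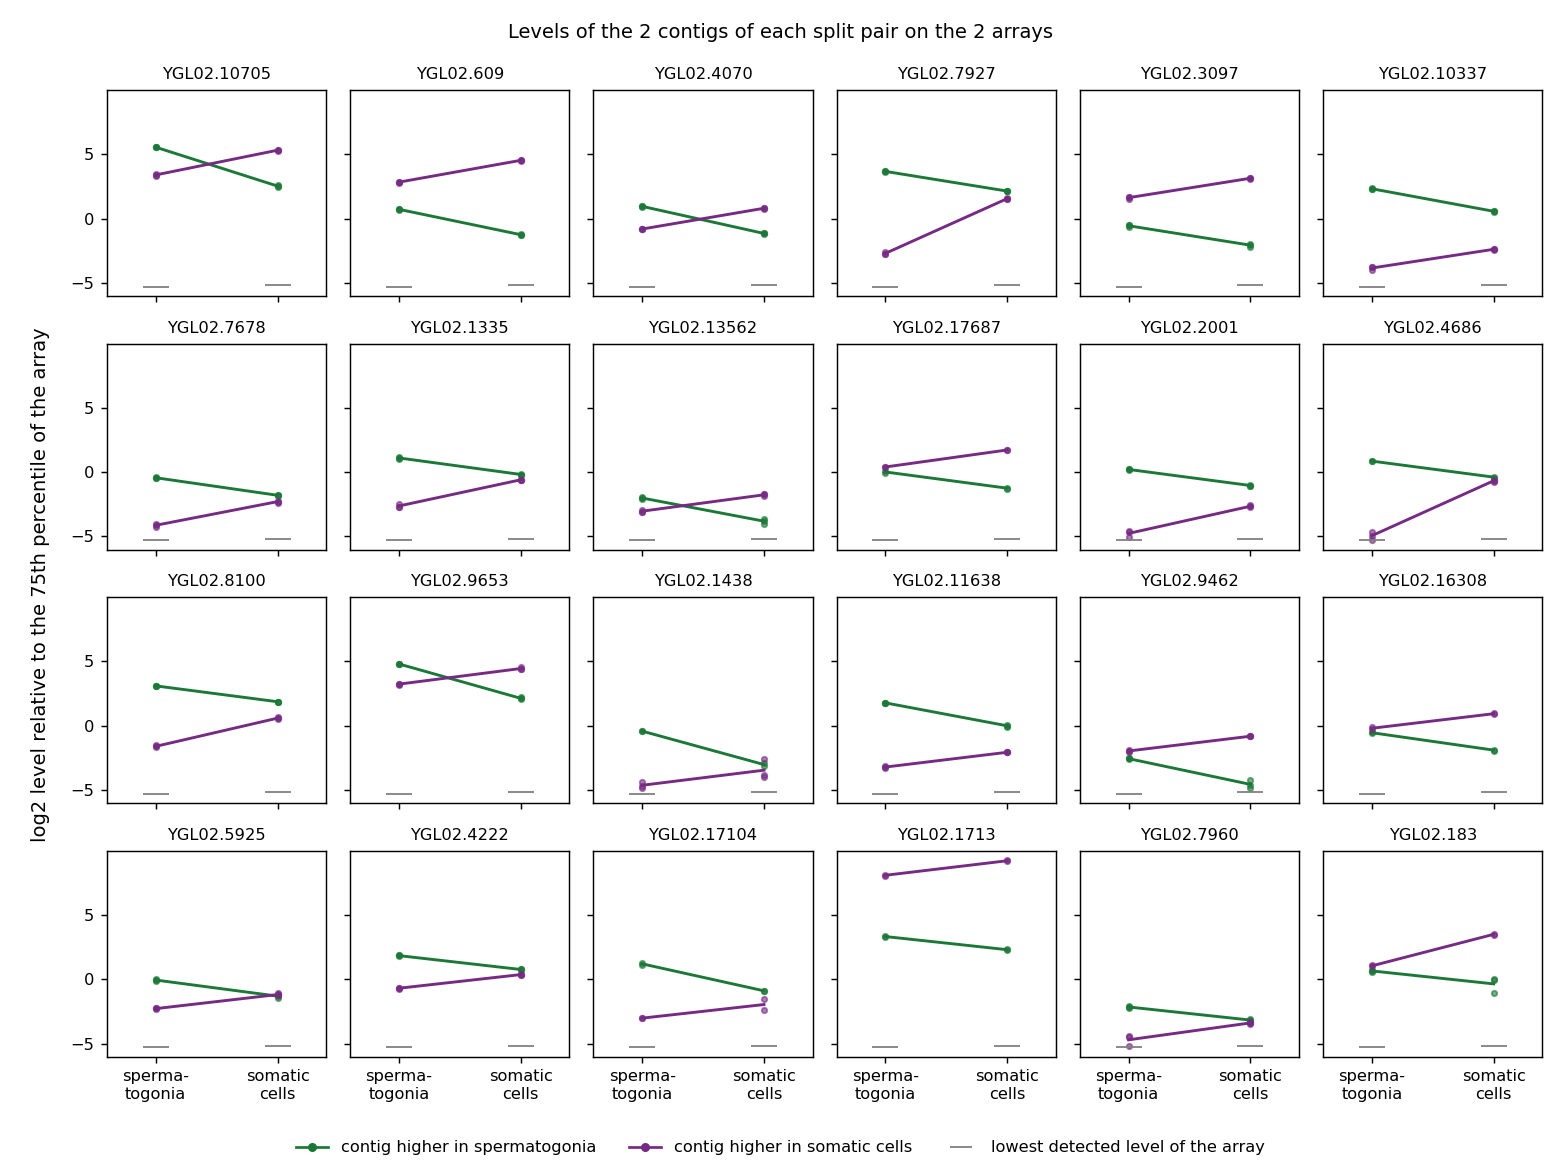
Each panel shows 1 split pair, with the log2 level relative to the 75th percentile of the array on the vertical axis and the 2 arrays on the horizontal axis; points are spots, lines join the means of a contig, green marks the contig higher in spermatogonia, purple the contig higher in somatic cells, and grey dashes the lowest detected level of each array. The lines of a pair run in opposite directions in all 24 panels, as the selection requires, and 8 pairs have a contig within 2 of the lowest detected level.

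The pair YGL02.10705 had the largest smaller difference of the 24. YGL02.10705.C1 had a level of 5.55 in spermatogonia and 2.52 in somatic cells, a difference of 3.02 (8.12-fold; spot SD 0.082, 3 spots). YGL02.10705.C2 had 3.39 in spermatogonia and 5.31 in somatic cells, a difference of -1.92 (3.79-fold; spot SD 0.054, 3 spots). These levels correspond to mean signals of 35921 and 2859 for the first contig and of 8045 and 19696 for the other, against medians of 5.05 and 3.83 for 300 negative control spots. All 4 levels were thus far above background. The spots of the arrays did not overlap for either contig, which selection on a 2-fold difference favours. The gap of this pair was 4.94 (30.8-fold).

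The pair YGL02.609 came next by its smaller difference. YGL02.609.C2 had a level of 0.72 in spermatogonia and -1.25 in somatic cells, a difference of 1.97 (3.92-fold; spot SD 0.081). Its partner YGL02.609.C1 had 2.83 in spermatogonia and 4.52 in somatic cells, a difference of 3.24-fold in the other direction (spot SD 0.034). Here the contig with the lower suffix was the somatic one, in contrast to YGL02.10705.

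In the pair YGL02.4070, contig YGL02.4070.C1 had a level of 0.95 in spermatogonia and -1.16 in somatic cells (4.31-fold; spot SD 0.028). YGL02.4070.C2 had -0.81 in spermatogonia and 0.80 in somatic cells (3.06-fold; spot SD 0.044).

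The pair YGL02.7927 was lopsided, with most of its gap on the somatic side. YGL02.7927.C2 had a level of -2.71 in spermatogonia and 1.55 in somatic cells, a difference of -4.25 (19.1-fold; spot SD 0.108). YGL02.7927.C1 had 3.66 in spermatogonia and 2.13 in somatic cells, a difference of 1.53 (2.89-fold; spot SD 0.056). Its gap of 5.78 (55.1-fold) was the largest of the 24 pairs and the third largest of all 1775.

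In the pair YGL02.3097 the sides were equal to within the spot SD under the scaling used here, which sets how a gap divides between its sides. With spike-in scaling its differences were 2.30 and -0.72, and without scaling 2.14 and -0.88, so it was not split under either. It stayed split under 12 of the 14 alternative settings. YGL02.3097.C2 had levels of -0.56 in spermatogonia and -2.07 in somatic cells (2.85-fold; spot SD 0.020), and YGL02.3097.C1 had 1.62 and 3.13 (2.85-fold the other way; spot SD 0.133). The last of the 6 pairs with the largest smaller difference was YGL02.10337. YGL02.10337.C2 had levels of 2.32 in spermatogonia and 0.56 in somatic cells (3.37-fold; spot SD 0.049). YGL02.10337.C1 was dim, with -3.84 and -2.39 (2.74-fold higher in somatic cells, spot SD 0.139). This somatic difference rests on signals, before scaling, of 53.6 in spermatogonia and 95.0 in somatic cells. Without scaling the difference was -0.82, which is under 2-fold.

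The largest gaps outside these 6 pairs were those of YGL02.4686, YGL02.9653 and YGL02.1438. YGL02.4686.C2 had a level of -4.94 in spermatogonia and -0.67 in somatic cells, a difference of -4.27 (19.3-fold; spot SD 0.280). Its spermatogonial signal of 25.0 lay close to the lowest signal of a detected probe on that array (19.7), so this fold depends on a value near the detection limit. In spermatogonia a share of 0.667 of its 3 spots was well above background. With normexp background correction its difference was -2.61 with 75th percentile scaling and -2.39 with quantile scaling. YGL02.4686.C1 had 0.86 in spermatogonia and -0.39 in somatic cells, 2.37-fold higher in spermatogonia (spot SD 0.034, 2 spots).

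The pair YGL02.9653 was bright on both sides. YGL02.9653.C2 had a level of 4.79 in spermatogonia and 2.12 in somatic cells, a difference of 2.67 (6.37-fold; spot SD 0.040). YGL02.9653.C1 had 3.22 in spermatogonia and 4.44 in somatic cells, a difference of -1.21 (2.32-fold; spot SD 0.051). Most of the gap of 3.88 in this pair lay on the spermatogonial side. The pair stayed split under 10 of the 14 alternative settings. Its somatic side was under 2-fold in the authors' value table (-0.72), with normexp and quantile scaling (-0.71), spike-in scaling (-0.43) and no scaling (-0.58).

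The pair YGL02.1438 was measured least precisely. YGL02.1438.C2 had a level of -0.42 in spermatogonia and -3.02 in somatic cells (6.06-fold; spot SD 0.216, 2 spots). YGL02.1438.C1 had -4.63 and -3.46, and its 3 spots gave differences of -0.91, -2.21 and -0.39 (mean -1.17, SD 0.936). The somatic side of this pair thus passed 2-fold at 1 of 3 spots, and its inclusion rests on that spot.

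Of the 3 further pairs whose lowest level was furthest from the detection limit, YGL02.1713 and YGL02.4222 had the smallest gaps of the 24. YGL02.1713.C2 was very bright, with levels of 8.07 in spermatogonia and 9.20 in somatic cells (2.19-fold; spot SD 0.032, 2 spots), and no spot on either array was saturated. Its difference of -1.13 was smaller with loess (-0.33), in the authors' value table (-0.26) and with normexp and quantile scaling (-0.36), where it no longer reached 2-fold. YGL02.1713.C1 had 3.31 and 2.29 (2.03-fold higher in spermatogonia; spot SD 0.017, 2 spots). In the pair YGL02.4222, YGL02.4222.C1 had 1.83 in spermatogonia and 0.75 in somatic cells, and YGL02.4222.C2 had -0.70 and 0.36. Their folds of 2.11 and 2.09 were close to the threshold, and the spot SD was 0.019 for each. Both YGL02.1713 and YGL02.4222 stayed split under 8 of the 14 alternative settings, and loess, the authors' value table, spike-in scaling and no scaling were among those that lost each.

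The third of these pairs, YGL02.183, was just inside the threshold. YGL02.183.C1 had a level of 1.03 in spermatogonia and 3.49 in somatic cells (5.47-fold; spot SD 0.020, 2 spots). YGL02.183.C2 had 0.64 and -0.36 (2.01-fold; spot SD 0.548), and its 3 spots gave differences of 1.64, 0.65 and 0.74. Of these spots 1 was past 2-fold, and it carried the mean over the threshold through its lower somatic level of -1.07, against -0.0021 and -0.024 at the others.

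The other pair just inside the threshold was YGL02.7960, which was dim on both arrays. YGL02.7960.C1 had levels of -2.16 in spermatogonia and -3.18 in somatic cells (2.03-fold; spot SD 0.194). YGL02.7960.C2 had -4.71 and -3.39 (2.48-fold higher in somatic cells; spot SD 0.422). Just outside the threshold were YGL02.2115 and YGL02.1914. YGL02.2115.C1 was 3.15 higher in spermatogonia in log2 and YGL02.2115.C2 had a difference of -0.99, and for YGL02.1914 the differences were 3.72 for C2 and -0.97 for C1. These 2 pairs had gaps above 4, which only 3 of the members reached, and missed the threshold on the somatic side by less than the spot SD of that contig (0.059 and 0.055).

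**Figure D3:**
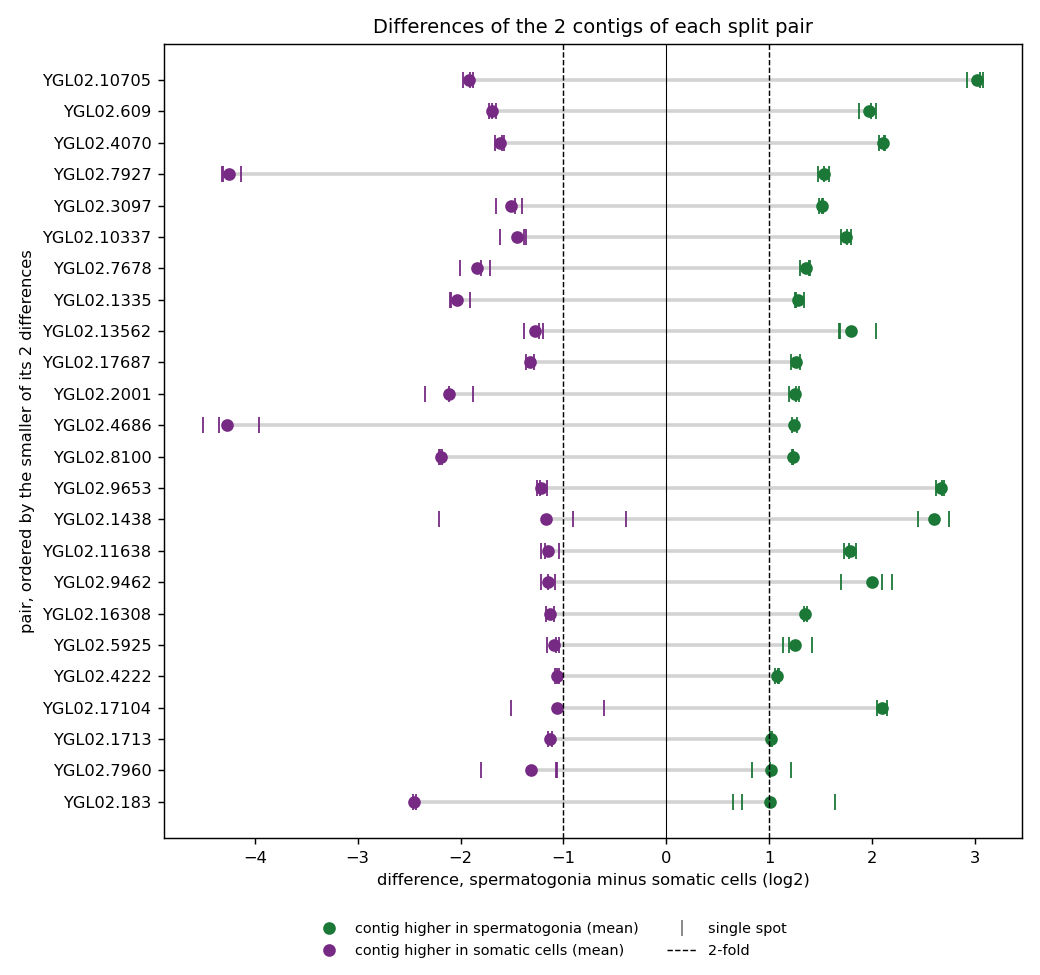
For each of the 24 split pairs the horizontal axis gives the difference between spermatogonia and somatic cells (log2); filled circles are the means of the contigs (green higher in spermatogonia, purple higher in somatic cells), short vertical marks are single spots, grey bars are the gaps and dashed lines mark 2-fold. The spots of a contig lie close together for most pairs, and spots cross the 2-fold line in YGL02.183, YGL02.1438, YGL02.7960 and YGL02.17104.

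The remaining 11 pairs complete the set. In 3 of them the somatic side exceeded 4-fold. YGL02.8100 was the most tightly measured pair: YGL02.8100.C1 had levels of -1.61 in spermatogonia and 0.58 in somatic cells (4.57-fold; spot SD 0.014), and YGL02.8100.C2 had 3.09 and 1.86 (2.35-fold the other way; spot SD 0.008). YGL02.1335.C1 had -2.63 and -0.60 (4.10-fold higher in somatic cells), and its partner YGL02.1335.C2 had 1.10 and -0.18 (2.43-fold higher in spermatogonia). YGL02.2001.C1 had -4.76 and -2.65 (4.33-fold; spot SD 0.233), with its spermatogonial level near the detection limit, and YGL02.2001.C2 had 0.21 and -1.04 (2.38-fold the other way). In these 3 pairs it was the C1 contig that was higher in somatic cells. Among the other pairs that exceeded 4-fold on the somatic side, it was C1 in YGL02.183 and C2 in YGL02.4686 and YGL02.7927.

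In 2 of the remaining pairs the spermatogonial side exceeded 4-fold. YGL02.17104.C1 had levels of 1.19 in spermatogonia and -0.90 in somatic cells (4.28-fold; 2 spots), while YGL02.17104.C2 had -3.03 and -1.97, with differences of -1.51 and -0.61 at its 2 spots. YGL02.9462.C1 had -2.56 in spermatogonia and -4.56 in somatic cells (4-fold; spot SD 0.263), and YGL02.9462.C2 had -1.97 and -0.82 (2.21-fold higher in somatic cells). The first pair thus passed the threshold on the somatic side at 1 of 2 spots, and the other has its large side near the somatic detection limit.

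The last 6 pairs stayed under 4-fold on both sides. YGL02.7678.C1 was 2.57-fold higher in spermatogonia (levels -0.44 and -1.80) and YGL02.7678.C2 3.58-fold higher in somatic cells (-4.13 and -2.29). YGL02.13562.C1 was 3.48-fold higher in spermatogonia (-2.01 and -3.81) and YGL02.13562.C2 2.42-fold higher in somatic cells (-3.04 and -1.76). YGL02.11638.C1 was 3.44-fold higher in spermatogonia (1.77 and -0.01) and YGL02.11638.C2 2.22-fold higher in somatic cells (-3.22 and -2.07). In these 3 pairs it was the C1 contig that was higher in spermatogonia, while in other pairs under 4-fold each way, such as YGL02.5925, it was C2.

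Smaller gaps were found in the other 3. YGL02.17687.C1 was 2.40-fold higher in spermatogonia (0.01 and -1.25) and YGL02.17687.C2 2.50-fold higher in somatic cells (0.40 and 1.72). YGL02.16308.C1 was 2.55-fold higher in spermatogonia (-0.55 and -1.90) and YGL02.16308.C2 2.19-fold higher in somatic cells (-0.20 and 0.93). YGL02.5925.C2 was 2.38-fold higher in spermatogonia (-0.07 and -1.32) and YGL02.5925.C1 2.13-fold higher in somatic cells (-2.29 and -1.19). For these 3 pairs the gaps were 2.58, 2.48 and 2.34.

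Repeat spots of a member probe had the same direction, which the selection favours because it used the mean of these same spots. The 48 probes had 133 spots left after 5 outlier spots were dropped. All 133 had the direction of their mean, and 127 were past 2-fold. For each of the 48 probes, the spot levels of the arrays did not overlap, which selection on a 2-fold difference also favours. Neither the shared direction nor the lack of overlap was counted for other probes. In 20 pairs every spot of both contigs was past 2-fold, and the 4 exceptions were YGL02.183, YGL02.1438, YGL02.7960 and YGL02.17104. The same 4 pairs had a contig whose difference lay within 1 spot SD of the threshold. The median spot SD was 0.059 over the 48 probes and 0.064 over 3498 probes of the other 1751 pairs.

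The scanner software also estimates an error per spot, which was larger than the spot SD for 44 of the 48 contigs and smaller for YGL02.183.C2, YGL02.1438.C1, YGL02.7960.C2 and YGL02.17104.C2. Propagated to the difference of a spot, it had a median of 0.206 in log2 over the members and reached 0.353 for YGL02.1438.C1. In 14 of the 24 pairs both differences exceeded 2-fold by more than this error. The gaps were 3.92 to 218 times the combined spot SD of their contigs, with the lowest ratio in YGL02.1438 and the highest in YGL02.8100. Selection on 2-fold differences in opposite directions favours large ratios, and no ratio is given here for the other pairs. The spot SD leaves out the spread between fish, sorts and labelling reactions, so these ratios do not show whether a split would recur in other samples.

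Dim signals occurred among the members and among the other pairs, and the difference in share was not tested. A contig within 2 (log2) of the lowest detected level of an array was present in 8 of 24 split pairs (33.3%) and in 408 of the 1751 other pairs (23.3%). By probe the shares were 18.8% and 13.3%. Among the members, 6 of the 24 contigs higher in somatic cells were this dim in spermatogonia, and 3 of the 24 contigs higher in spermatogonia were this dim in somatic cells. Every spot was well above background on both arrays for 44 of the 48 contigs. The exceptions were YGL02.2001.C1, YGL02.4686.C2 and YGL02.7960.C2 in spermatogonia and YGL02.9462.C1 in somatic cells. The part of dim signals in the split was not tested, and 16 pairs had all 4 levels further above the limit.

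The members shared few features that the selection had not used. All 24 pairs carried the suffixes C1 and C2 and consecutive probe numbers, but so did 1774 of the 1775 pairs. The C1 contig was the one higher in spermatogonia in 14 pairs (58.3%) and C2 in 10. Over all 1775 pairs C1 had the higher difference in 919 (51.8%), and over the 82 pairs with a gap of at least 2 that were not split it did in 40 (48.8%). Probes had 3 spots in 37 cases and 2 in 11, and 77.1% with 3 spots compares with 80.7% in the other pairs. The numbers in the names ran from 183 to 17687 among the members and from 0 to 22855 among the others. Their medians were 7802.5 and 5799, and this difference was not tested. Spots of a member probe spanned 6 to 512 of the 528 rows of the array and at least 21 columns, so the spots of a probe did not sit side by side.

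Which pairs counted as split depended on how the arrays were scaled. Scaling to spike-in transcripts, which rested on 5 of the 10 spike-in probes, moved every difference up by 0.79 in log2. Leaving the arrays unscaled moved it up by 0.63. With spike-in scaling 8 of the 24 pairs stayed split and 8 other pairs became split, for 16 in all. Without scaling 9 stayed and 14 others were added, for 23 in all. In each pair that was lost under these scalings, the somatic side came to lie under 2-fold.

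The 8 pairs that stayed split with spike-in scaling were YGL02.183, YGL02.1335, YGL02.2001, YGL02.4686, YGL02.7678, YGL02.7927, YGL02.8100 and YGL02.10705. Over all 14 alternative settings, 4 pairs were at least 2-fold apart each way throughout: YGL02.10705, YGL02.7927, YGL02.8100 and YGL02.1335. Across the settings their gaps did not go below 4.84, 5.14, 3.18 and 2.76, respectively. Of all 24 pairs, 17 kept a gap of at least 2 under every setting, and the lowest gap was 1.03, in YGL02.7960. The contigs of all 24 pairs kept opposite signs under each of the 14 settings. A shift of under 1 in log2 could not turn a sign by construction, and the settings reprocess the same arrays.

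**Figure D4:**
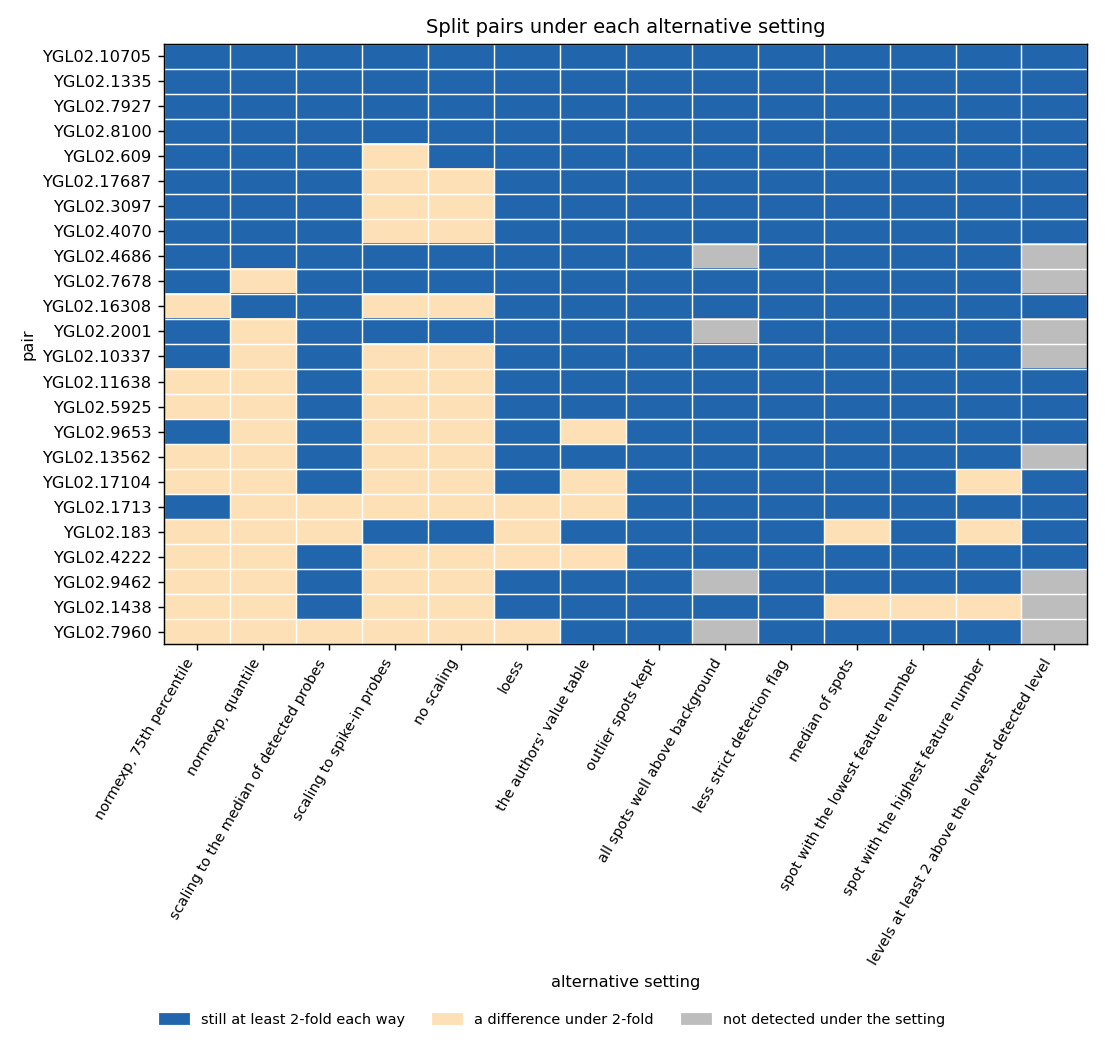
Rows are the 24 split pairs and columns the 14 alternative settings; blue marks a pair still at least 2-fold apart each way, beige a pair with a difference under 2-fold and grey a pair with a contig not detected under the setting. The top 4 rows are blue throughout, and most beige cells stand under background correction by normexp, spike-in scaling and no scaling.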

How the data were processed

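The authors deposited the scanner output of 1 array per population. Per the file headers it comes from Agilent Feature Extraction (version 10.7.3.1; 10.7 per the submitters' processing notes) and holds a linear processed intensity per spot, from which background and trends across the array have been removed. They also deposited a value table, taken as log2 because its columns followed the log2 signals of their own arrays with slopes of 1.02 and 0.980 and a median of 6.97 each; the sources used here do not give its scaling. Control spots were left out (103747 spots stayed), as were spots that either array flagged as uneven or deviating from their repeats, and log2 signals were scaled to the 75th percentile and averaged per probe (Python 3.11.15, pandas 2.3.3). With 1 sample per group no p-value was computed; precision is limited by there being 1 array each. Both arrays came from 1 slide and 1 scan per the file headers, so position and population cannot be told apart. The calculation was tested on simulated data. Members, named pairs and alternatives were chosen with earlier results of these data known. Pairs were named by the 6 largest smaller differences, then the 3 largest gaps, then the 3 furthest from the detection limit, those with 12 or 13 spots (0 found), and 2 each just inside and outside the threshold; the other 11 were added after their values were seen. Normexp correction started from the median spot and background signals, not from the processed signal, and used limma 3.58.1 with offset 50. Loess used a span of 0.7. Gene names were sought in a table of 72772 genes of assembly USDA_OmykA_1.1, with 0 matches.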

Additional observations from a re-analysis of the deposited data

Results flagged for a closer look

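Outside the comparison, 6 of the 2387 pairs (0.251%) had 1 contig detected in spermatogonia alone and the other in somatic cells alone, a signal in probes that the selection of members had left out. Folds compare the brighter level with the other array's lowest level of a detected probe. Where the contig's own level there was higher, that level was used. Some undetected contigs lay above that lowest level, such as YGL02.18882.C1 at -4.98 in spermatogonia (lowest detected level -5.29). These folds are therefore not strict lower limits. In the pair YGL02.6605, C1 had a level of -3.22 in spermatogonia (3.89-fold higher) and C2 had -3.35 in somatic cells (3.82-fold higher there). In YGL02.18988, C1 had -3.36 in spermatogonia (3.52-fold higher), and its 2 spots had an SD of 1.94 in the difference. Its partner C2 had -3.29 in somatic cells (3.99-fold higher there). Only in these 2 of the 6 pairs were both folds at least 2, and their 4 brighter levels lay between -3.36 and -3.22. By the same measure YGL02.9078.C1 was 21.1-fold higher in somatic cells, while its partner YGL02.9078.C2 was 1.97-fold higher in spermatogonia. The difference of YGL02.9078.C2 was 1.20 in log2, with a larger SD of 1.97 over its 3 spots. The folds of the other 3 pairs were as low as 1.03, for YGL02.2969.C2 (SD 1.09 in the difference).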

How the results depend on the processing

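Against 24 split pairs, normexp background correction gave 14 with 75th percentile scaling, all among the 24. With quantile scaling it gave 11, of which 10 were among the 24. The pairs then split had median gaps of 3.01 and 2.93 against 3.20, and passing the threshold keeps such gaps large. Over the same 24 pairs the median gaps were 2.56 and 2.42. By construction the normexp offset lowers differences of dim probes. Normexp also started from the median spot and background signals in place of the processed signal. How much of the loss either explains was not tested. Of the 24 pairs, 8 stayed split with spike-in scaling (median gap of the pairs then split 3.34) and 9 without scaling, since each difference moves by 0.79 or 0.63 in log2. The median difference of all probes detected on both arrays moved by -0.14 with normexp and by 0.15 in the authors' value table. Splits of 4-fold each way numbered 0 as reported, 2 with spike-in scaling, 1 without scaling and 2 with the less strict detection flag. With spike-in scaling they were YGL02.4686 (2.03 and -3.48) and YGL02.7927 (2.32 and -3.47). Without scaling it was YGL02.7927 (2.16 and -3.62). The less strict flag admitted 2092 pairs in place of 1775, and under it 3 pairs in place of 6 were detected in opposite populations. These changes follow from the shift or the flag by construction. A threshold of 1.5-fold gave 56 split pairs, and a gap of at least 2 in either direction gave 106, both by construction. Using only the spot with the lowest feature number gave a median gap of 3.35. Where these counts moved by no more than 1.5 times, split pairs lay between 16 and 31 and members still split between 16 and 24. That cut bounds these ranges, and the 4 settings beyond it kept 8 to 14 of the members. Loess and the authors' value table each kept 20 of the 24. Pairs with both contigs at least 2-fold apart in the same direction numbered between 557 and 974 over the 14 settings, against 769. The 557 were of 1359 pairs detected under that setting, and the 974 of 1775. Of the 769, 440 favoured spermatogonia and 329 somatic cells. The counts were 787 and 187 with spike-in scaling, and 306 and 297 with normexp and 75th percentile scaling. Whether the same-direction pairs were the same ones across settings was not counted. The named contigs kept their sign in all 364 recomputed differences. Many of these were fixed in advance: shifts of under 1 in log2 could not turn a sign, and settings that change only detection leave differences as they are. A contig within 2 (log2) of the lowest detected level was present in 8 of the 24 pairs (33.3%) and 408 of 1751 others (23.3%). Whether such dim signals limit the split was not tested. No paired analysis was possible because each group has 1 sample.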

Other observations

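The widest gap between the contigs of a pair was not a split. It was found in YGL02.6202, chosen here after its values were seen, where the difference was -7.51 for YGL02.6202.C1 and -1.14 for YGL02.6202.C2, a gap of 6.37 with both contigs higher in somatic cells. The next, YGL02.3734, had 0.72 for YGL02.3734.C1 and -5.12 for YGL02.3734.C2, and thus missed the threshold on the spermatogonial side.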
